A study of Mus musculus with 14 samples.

Results

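Genes for enzymes that act on histone tails were followed in the hippocampus of young mice: 3 KDM5 demethylases (Kdm5a, Kdm5b and Kdm5c) and 6 histone acetyltransferases (Crebbp, Ep300, Kat2a, Kat2b, Kat6a and Kat6b). These 9 genes were chosen by symbol and not by their values, though with earlier results of these data known. All 9 were among the 16568 genes tested. RNA of C57BL6 mice was sequenced in 14 libraries. The labels do not say that each library came from a separate mouse, and the series' design states 3 to 4 mice per group where the labels give 5 treated wild-type libraries, so p-values measure the spread between libraries. The mice were wild type or KMT2D+/bGeo, that is heterozygous for a bGeo allele of Kmt2d, and are called mutant here. The LSD1 inhibitor TAK-418 was given by gavage at 1 mg/kg/day in methylcellulose, against methylcellulose alone (vehicle), for 2 weeks from 2 weeks of age, and the mice are labelled as 30 days old. LSD1 is the histone demethylase encoded by Kdm1a. Under vehicle there were 3 wild-type and 3 mutant libraries, and under TAK-418 there were 5 wild-type and 3 mutant ones. The allele and the drug acted in the whole animal, and the tissue was the whole hippocampus. In such bulk tissue, fewer cells of a type and less RNA per cell cannot be told apart.

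Methylation of lysine 4 of histone H3 (H3K4) marks active promoters and enhancers. KMT2D is one of the enzymes that writes it at enhancers, LSD1 removes the lower methylation states, and the KDM5 enzymes remove the higher ones. Acetyltransferases add a second activating mark: CBP (Crebbp) and p300 (Ep300) are coactivators that acetylate enhancers, GCN5 (Kat2a) and PCAF (Kat2b) are the catalytic subunits of the SAGA and ATAC complexes, and MOZ (Kat6a) and MORF (Kat6b) acetylate histone H3 in complexes with BRPF proteins. Several of these genes are mutated in human syndromes with intellectual disability, among them KDM5C, CREBBP, EP300, KAT6A and KAT6B. The comparisons ask whether the mutant allele of Kmt2d or the LSD1 inhibitor went with altered RNA of other enzymes of the same marks.

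Replicate 1 of the treated wild types was the deepest library, with a relative depth of 168, and the other 13 had 35.1 to 60.0. Depth went with treatment in part: vehicle libraries had 35.1 to 49.8. Treated libraries had 52.7 or more, except wild-type replicate 3 at 40.8 and mutant replicate 3 at 47.5. The part of depth in the drug contrasts was not tested. Relative depth is the inverse of the smallest step between abundances after correction for length, so only its ratios between libraries can be read. Kmt2d itself had a scaled abundance of 12.5 to 18.0 in the 8 wild-type libraries and 9.35 to 14.6 in the 6 mutant ones, so the genotypes overlapped. Its log2 difference over both treatments was -0.26 ± 0.11 (SE, n = 14 libraries; limma p = 0.0425, adjusted p = 0.847). The markers of excitatory neurons summed to 1840 to 2160 and those of hippocampal fields to 210.0 to 256 in all 14 libraries, while markers of thalamus reached only 17.1 to 23.1. The 5 choroid plexus markers, led by Ttr, summed to 6460 in wild-type vehicle replicate 3 and 5020 in mutant vehicle replicate 1, against a median of 42.6 over all libraries. Another mutant vehicle library was at 907 and a mutant TAK-418 library at 608. The part of these markers in the results was not tested. Values without the 2 highest libraries are given beside several results below.

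Stretches of 4 of these genes are shown first, because the assembled forms of Kdm5b, Kdm5a, Kdm5c and Kat6b differed in them within single libraries. All are on the plus strand of GRCm38 (mm10), written 5′ to 3′ from the GENCODE M21 transcripts. For Kdm5b, capitals mark the start of a 483-base stretch (chr1:134630754-134631236) that is either kept or spliced out, up to the stop codon that ends the annotated reading frame of Kdm5b-203 in it. For Kdm5c, capitals mark the 9 bases added by a second donor site to a coding exon. For Kdm5a and Kat6b, each sequence is a whole exon in capitals that is present in some forms only.
Kdm5b, chr1:134630724-134630810: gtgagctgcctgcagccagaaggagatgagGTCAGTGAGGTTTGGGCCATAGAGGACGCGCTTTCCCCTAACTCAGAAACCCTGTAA
Kdm5a exon of 82 bases, chr6:120438444-120438525: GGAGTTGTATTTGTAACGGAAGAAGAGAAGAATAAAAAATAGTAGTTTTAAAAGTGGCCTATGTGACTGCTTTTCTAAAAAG
Kdm5c exon of 70 or 79 bases, chrX:152271860-152271938: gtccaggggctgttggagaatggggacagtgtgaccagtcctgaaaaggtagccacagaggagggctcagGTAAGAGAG
Kat6b exon of 133 bases, chr14:21621955-21622087: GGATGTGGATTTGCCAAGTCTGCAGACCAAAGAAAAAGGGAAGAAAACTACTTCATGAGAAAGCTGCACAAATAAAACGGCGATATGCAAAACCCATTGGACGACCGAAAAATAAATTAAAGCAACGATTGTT
Kat6b exon of 56 bases, chr14:21624833-21624888: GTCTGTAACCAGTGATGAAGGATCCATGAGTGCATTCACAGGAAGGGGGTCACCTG

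All 9 genes were expressed in every library, at middle to upper levels. Values are scaled abundances, the summed per-length values of a gene's assembled transcripts after scaling between libraries. They depend on the assembled length, which was short of the annotation for some genes, so the order and ratios of levels are approximate. Several members changed place with the most abundant transcript alone or with weighting by transcript length. Kat2a was the highest, at 26.5 ± 1.21 (SD, n = 14 libraries), which is above 76.2% of the genes tested. Kdm5b followed at 21.5 ± 1.21 and was below Kat2a and above every other one of the 9 in all 14 libraries. Ep300 at 14.05 ± 1.09 (SD, n = 14) and Kdm5c at 14.01 ± 2.103 did not differ beyond their spread, with Ep300 the higher in 9 of 14 libraries. Kat6b (11.99 ± 0.82), Crebbp (11.6 ± 0.69) and Kat6a (11.1 ± 0.97) formed a run whose ranges overlapped. Kdm5a (8.49 ± 0.41) lay below Kat6a in all 14 libraries. Kat2b was the lowest at 7.61 ± 0.72, near the middle of all genes (above 47.0% of them), and was below Kdm5a in 13 of 14 libraries. The paralogs thus differed by unlike amounts. Kat2a was 3.48 times Kat2b, and Kdm5b also stood far above Kdm5a. Ep300 was 1.21 times Crebbp on average and was above it in all 14 libraries. Kat6b was 1.08 times Kat6a, with overlapping ranges.

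The authors' deposited tables, which give 1 FPKM value per pooled group, had nearly the same order. In them Kat2a was at 19.2 to 20.6, Kdm5b at 14.1 to 15.0, Ep300 at 11.2 to 13.1, Kdm5c at 11.7 to 12.5, Kat6b at 9.28 to 9.82, Kdm5a at 8.42 to 9.21, Crebbp at 8.04 to 9.11, Kat6a at 7.83 to 8.55 and Kat2b at 5.13 to 5.81. By the median over the tables, Kdm5a stood above Crebbp and Kat6a, unlike in the libraries. This did not hold in wild-type TAK-418, where it was below both, and in mutant vehicle Ep300 (11.2) was below Kdm5c (12.1). The deposited Kdm5a locus starts at base 120324322 of chromosome 6, before the annotated start of the gene at 120364124. The part of this wider locus in the rank of Kdm5a was not tested.

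**Figure D1:**
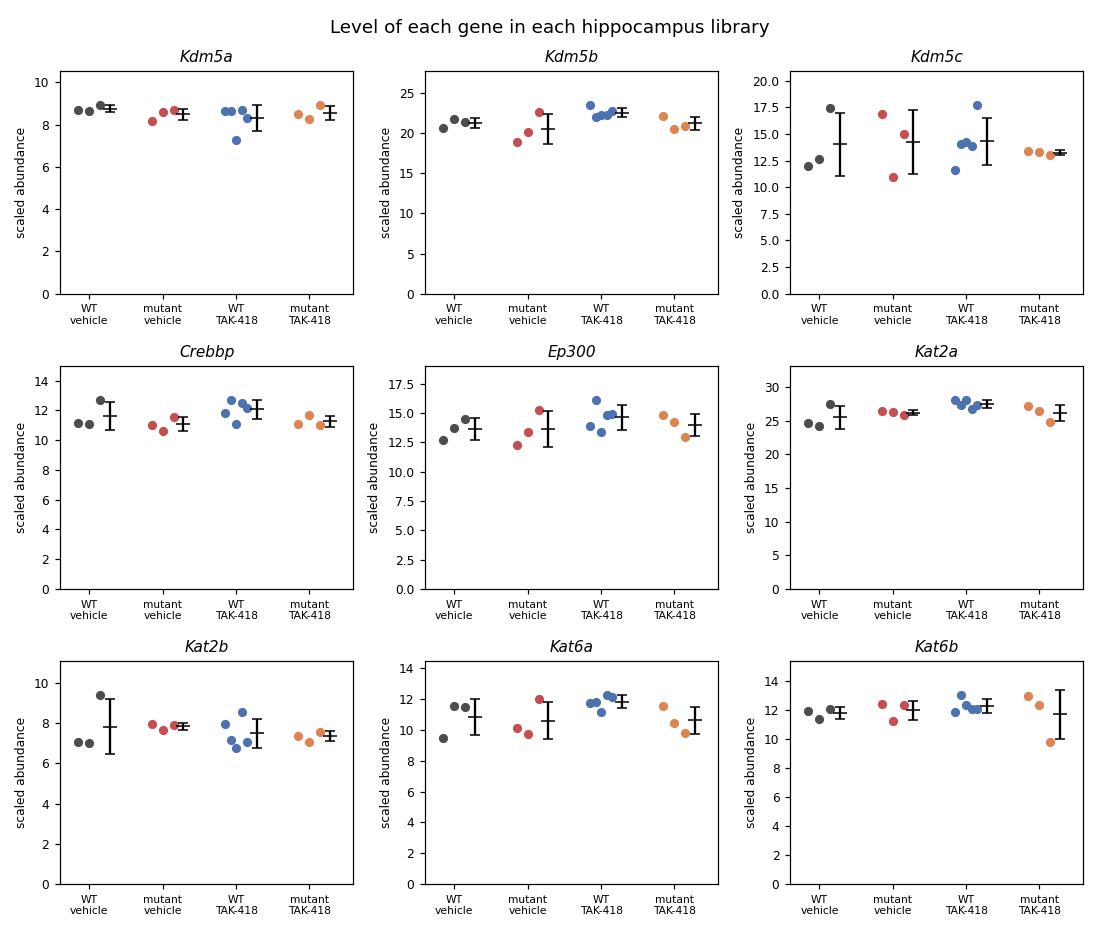
Scaled abundance of each gene (y axis, from 0) in the libraries of the 4 groups (points, 3 per group and 5 for wild types under TAK-418), with the group mean and SD as a bar beside them. The groups overlap for nearly every gene, and Kdm5c has the widest scatter, from 10.9 to 17.7.

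No member passed the test for a difference between genotypes or treatments. With limma over all 16568 genes, 8 contrasts were tested, and 0 of 9 members passed an adjusted p of 0.05 in each of them. Few genes passed at all: 0.0% of genes in the genotype effect under vehicle (where 904 had an unadjusted p under 0.05), 0.0121% in the genotype effect under TAK-418, 0.00604% in the drug effect in wild types, again 0.00604% in mutants, and the same in the comparison of treated mutants with vehicle wild types, the genotype effect over both treatments and the interaction. The share was 0.0121% in the drug effect over both genotypes. Of the 72 limma tests of a member, 1 had an unadjusted p under 0.05 (1.39%, against 5.89% of the tests of all genes), and the smallest adjusted p was 0.531. The share of all genes with such a p was 5.46% for the genotype effect under vehicle, 4.92% for that under TAK-418 and 5.85% for that over both treatments. It was 8.43% for the drug effect in wild types, 4.39% for that in mutants, 8.26% for that over both genotypes, 5.38% for treated mutants against vehicle wild types and 4.42% for the interaction. Members whose groups did not overlap numbered 1 in the drug effect in wild types (6.34% of all genes), 1 in that in mutants (8.18%) and 0 in the genotype effect under vehicle (8.91%), the genotype effect under TAK-418 (4.57%) and treated mutants against vehicle wild types (9.52%). The contrasts share libraries and are not independent.

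The intervals show how large a change these libraries could have missed. In the 5 contrasts of single groups, the 95% limits of the differences of all members but Kdm5c lay between 0.799 and 1.23 times. For Kat2a they lay between 0.889 and 1.15 times, and for Kdm5c between 0.73 and 1.31 times. Exact two-sided permutation tests of the same 45 differences gave a smallest p of 0.0357 and a smallest adjusted p of 0.643. That p is the smallest that 3 against 5 libraries can give, and 3 against 3 cannot go below 0.1.

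**Figure D2:**
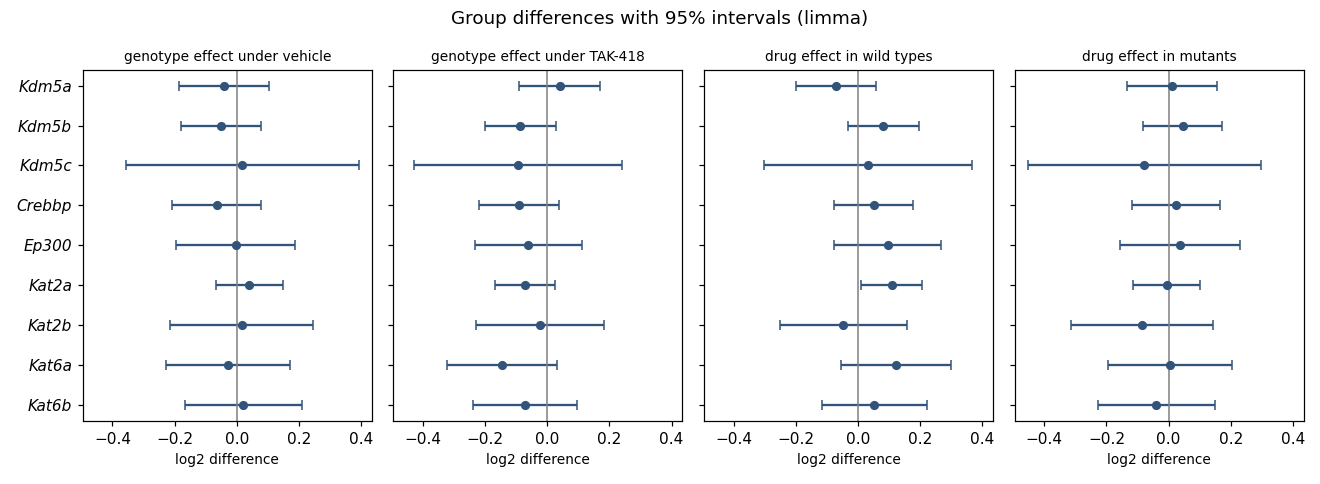
Log2 difference of each gene (points) with its 95% interval from limma (bars), in the genotype effect (mutant minus wild type) under vehicle and under TAK-418 and in the drug effect (TAK-418 minus vehicle) in wild types and in mutants. All intervals but that of Kat2a in wild types, from 0.011 to 0.205, include 0, and those of Kdm5c are the widest.

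The signs of the members' differences were uneven in some contrasts, though none passed the test. Over both treatments, all 9 members were lower in mutants, with a median log2 difference of -0.032 against 0.0029 over all genes. That count includes Kdm5a at -0.001 ± 0.0446 (SE) and Kat2b at -0.004 ± 0.0705 (SE), both far smaller than their SE. The members' levels moved together in part, so their signs are not independent. Under TAK-418, 8 of 9 were lower, with a median of -0.073 against 0.0032 over all genes, while under vehicle 5 of 9 were lower with a median of -0.003. The drug effect in wild types uses the same wild-type TAK-418 libraries and had 7 of 9 higher with a median of 0.053, and the drug effect in mutants had 5 of 9 higher with a median of 0.004. The interaction had 8 of 9 members negative, a median of -0.058 against 0.0046 over all genes, and no adjusted p below 0.977. In each of these contrasts, 49.0% to 51.3% of all genes had a positive difference. Without the 2 libraries highest in choroid plexus markers, the median drug effect in wild types was 0.11, the median interaction -0.141 and the median genotype effect under vehicle 0.041, with 0 of 9 called in each.
These medians depended on single libraries and on the scaling. Leaving out each library in turn moved the median of the genotype effect over both treatments from -0.06 (without mutant vehicle replicate 3) to -0.011 (without wild-type vehicle replicate 3). That of the genotype effect under TAK-418 moved from -0.1 (without mutant TAK-418 replicate 1) to -0.044 (without replicate 3). Under vehicle it turned in sign, from -0.056 without mutant vehicle replicate 3 to 0.038 without wild-type vehicle replicate 3. The drug effect in wild types had a median of 0.027 without wild-type vehicle replicate 2 and 0.111 without replicate 3, and that in mutants -0.034 without mutant TAK-418 replicate 1 and 0.038 without replicate 3. The interaction had -0.015 without wild-type vehicle replicate 1 and -0.109 without replicate 3. With values as deposited, the median genotype effect over both treatments was -0.118, where that of all genes was -0.0744.

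Kdm5a, a demethylase first found as a binding partner of the retinoblastoma protein, varied little. Its scaled abundance was 8.67, 8.65 and 8.93 in wild-type vehicle libraries and 8.17, 8.58 and 8.67 in mutant vehicle ones. It was 8.63, 8.64, 7.27, 8.68 and 8.31 in treated wild types and 8.52, 8.24 and 8.90 in treated mutants. All groups overlapped, and wild-type TAK-418 replicate 3 was the low one. The smallest limma p came from wild types, where the drug effect was a log2 difference of -0.071 ± 0.0594 (SE; exact permutation p = 0.143, limma p = 0.258, adjusted p = 0.759). The SD within groups was 0.0692 on the log2 scale, and only 9.35% of the 2461 genes of like level varied less. The difference was -0.028 without wild-type TAK-418 replicate 3.

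Kdm5b, the demethylase also called PLU-1 or JARID1B, was at 20.6, 21.8 and 21.4 in wild-type vehicle libraries. It was at 23.5, 22.0, 22.2, 22.3 and 22.7 in wild-type TAK-418 libraries, all above the highest vehicle value. The drug effect in wild types was 0.08 ± 0.05 (SE; limma p = 0.144, adjusted p = 0.688; exact permutation p = 0.0357, adjusted p = 0.643). Groups that do not overlap were found in this contrast for 6.34% of all genes and for 1 of the 9 members. Mutant libraries were at 18.9, 20.1 and 22.6 under vehicle and at 22.1, 20.5 and 20.9 under TAK-418, and each group overlapped the wild types under the same treatment. The smallest limma p of Kdm5b was in the genotype effect over both treatments, at -0.069 ± 0.0392 (SE, n = 14 libraries; p = 0.105, adjusted p = 0.882), and at -0.041 without mutant vehicle replicate 1.

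Kdm5c is X-linked and known to escape X inactivation, and it was the most variable of the 9. Its SD within groups was 0.224 on the log2 scale, where the median of 2814 genes of like level was 0.117. It was at 12.03, 12.7 and 17.4 in wild-type vehicle, 16.9, 10.9 and 15.0 in mutant vehicle, 11.6, 14.1, 14.3, 13.9 and 17.7 in treated wild types and 13.4, 13.3 and 13.0 in treated mutants. The groups overlapped throughout. The smallest limma p was that of the genotype effect under TAK-418, at -0.094 ± 0.154 (SE; exact permutation p = 0.536, limma p = 0.551, adjusted p = 0.953). It was -0.162 without wild-type TAK-418 replicate 1 and -0.018 without replicate 5.

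A pair of features that cross the groups moved with the Kdm5c level. Xist, the RNA that coats the inactive X chromosome, was listed in 6 libraries at 55.8 to 90.8 and was at 0 in the other 8. In those 8 the Y-linked genes were listed instead: Kdm5d, the Y-linked paralog of Kdm5c, at 6.19 to 8.10, with Ddx3y, Eif2s3y and Uty. The labels give no sex. The assembled 3′ end of Kdm5c also fell into a pair of classes: 9 libraries ended 105 to 324 bases before the annotated end of the gene (chrX:152233020-152274535), and 5 ended 3977 to 4300 bases past it. The top transcript was 6052 to 6250 bases long in the first class and 10354 to 10680 bases in the second, and abundance is a value per length.
Among libraries with the short end, Kdm5c was at 16.9, 17.4 and 17.7 in the 3 that listed Xist and at 12.7 to 15.0 in the 6 that did not. Among those with the long end, it was at 12.03 to 14.1 in the 3 that listed Xist and at 10.9 and 11.6 in the 2 that did not. Within each class of 3′ end, every library that listed Xist was above every library that did not. Both classes of end and both Xist states occur in every group, but not evenly. Xist was listed in 2 of 3 wild-type vehicle, 1 of 3 mutant vehicle, 2 of 5 wild-type TAK-418 and 1 of 3 mutant TAK-418 libraries. These splits were made after the values were seen and carry no test.

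**Figure D3:**
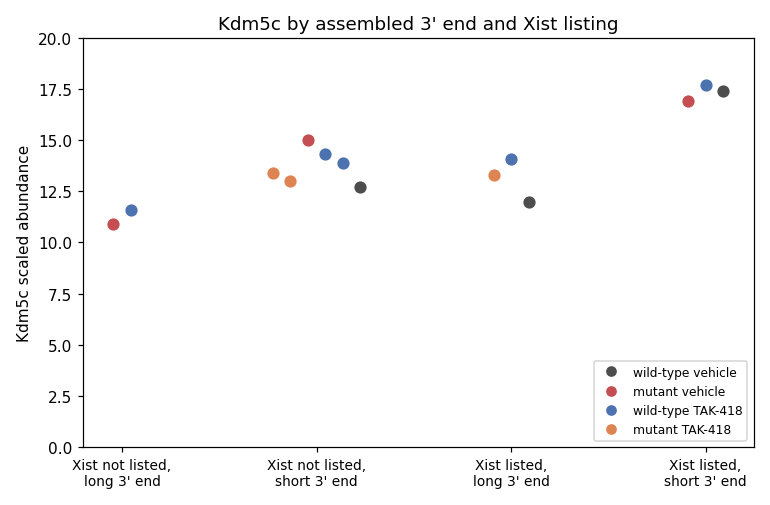
Kdm5c scaled abundance (y axis, from 0) in the 14 libraries, split by whether Xist was listed and by the assembled 3′ end, with colours for the 4 groups. The 3 libraries with Xist and a short end are at 16.9 to 17.7, and the 2 without Xist and with a long end are at 10.9 and 11.6.

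Crebbp, the CBP coactivator that binds phosphorylated CREB and is studied for its role in memory, was at 11.1, 11.05 and 12.7 in wild-type vehicle libraries. It was at 10.99, 10.6 and 11.6 in mutant vehicle, 11.8, 12.7, 11.1, 12.5 and 12.2 in treated wild types and 11.1, 11.7 and 11.02 in treated mutants. The 4 groups overlapped. The genotype effect over both treatments was -0.078 ± 0.0439 (SE, n = 14 libraries; limma p = 0.101, adjusted p = 0.88), the smallest limma p of this gene, and -0.048 without wild-type vehicle replicate 3. The exact permutation p was smallest in the genotype effect under TAK-418, at 0.0714 (adjusted p = 0.643).

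Ep300, its paralog p300, was at 12.7, 13.7 and 14.5 in wild-type vehicle and at 12.3, 13.4 and 15.2 in mutant vehicle libraries. Under TAK-418 it was at 13.8, 16.1, 13.4, 14.8 and 14.9 in wild types and at 14.8, 14.2 and 12.9 in mutants. The groups overlapped, and the smallest limma p was that of the drug effect in wild types at 0.096 ± 0.079 (SE; exact permutation p = 0.179, limma p = 0.248, adjusted p = 0.757). That difference was 0.048 without wild-type vehicle replicate 1 and 0.139 without replicate 3. In the authors' deposited tables, Ep300 had the most negative log2 fold change of any member, -0.208 for mutant vehicle against wild-type TAK-418 (q = 0.705).

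Kat2a, the GCN5 subunit of SAGA, was the one member with an unadjusted limma p under 0.05. It was at 24.7, 24.3 and 27.5 in wild-type vehicle libraries and at 28.1, 27.3, 28.0, 26.8 and 27.4 in wild-type TAK-418 libraries. The lowest treated value lay above 2 of the 3 vehicle values and below the third, which was replicate 3, a library high in choroid plexus markers. The drug effect in wild types was 0.108 ± 0.0443 (SE; limma p = 0.0318, adjusted p = 0.531; exact permutation p = 0.143), and 0.16 without the 2 libraries highest in choroid plexus markers (limma adjusted p = 0.363). An unadjusted p under 0.05 was found for 8.43% of all genes in this contrast. In mutants Kat2a was at 26.5, 26.4 and 25.8 under vehicle and at 27.2, 26.4 and 24.8 under TAK-418, with a drug effect of -0.01 ± 0.05 (SE; adjusted p = 1.0).

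Kat2b, the PCAF paralog, was at 7.06, 7.004 and 9.40 in wild-type vehicle libraries, with the high value again in replicate 3. It was at 7.96, 7.67 and 7.94 in mutant vehicle and at 7.38, 7.08 and 7.58 in mutant TAK-418 libraries, which did not overlap. Groups that do not overlap were found in the drug effect in mutants for 8.18% of all genes, and the exact permutation p of 0.1 is the smallest that 3 against 3 can give. Wild-type TAK-418 libraries were at 7.94, 7.16, 6.77, 8.57 and 7.07, spanning the mutant values. The drug effect over both genotypes was -0.066 ± 0.0705 (SE, n = 14 libraries; limma p = 0.365, adjusted p = 0.817), and it was 0.00022 without the 2 libraries highest in choroid plexus markers.

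Kat6a, the MOZ acetyltransferase, was at 9.47, 11.6 and 11.4 in wild-type vehicle and at 10.1, 9.72 and 11.98 in mutant vehicle libraries. It was at 11.8, 11.8, 11.1, 12.2 and 12.1 in treated wild types and at 11.6, 10.5 and 9.81 in treated mutants. The treated groups overlapped only through the highest mutant and the lowest wild-type library. In the main fit with all libraries, the genotype effect under TAK-418 was the largest limma difference for any of the 9 genes, at -0.146 ± 0.0815 (SE; limma p = 0.0981, adjusted p = 0.926; exact permutation p = 0.0714).

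Kat6b, the MORF paralog, was at 11.9, 11.4 and 12.1 in wild-type vehicle, 12.4, 11.2 and 12.3 in mutant vehicle and 11.9, 13.0, 12.4, 12.04 and 12.05 in wild-type TAK-418 libraries. In mutant TAK-418 libraries it was at 13.0, 12.4 and 9.76, and the last, replicate 3, was the lowest of all 14. The genotype effect under TAK-418 was -0.072 ± 0.0772 (SE; exact permutation p = 0.643, limma p = 0.37, adjusted p = 0.932), and it turned to 0.044 without that library.

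The authors' own comparisons called no member either. Each of the 4 deposited tables held 1 tested locus for each of the 9 genes, and Kat2b had a second locus at 0 that was not tested. None of the 36 tests had a q-value under 0.05, the smallest q being 0.695 and the smallest p 0.104, both for Crebbp in mutant vehicle against wild-type TAK-418 (log2 fold change -0.166). The share of tested loci with q under 0.05 was 0.224% for mutant vehicle against wild-type vehicle, 0.218% for mutant TAK-418 against wild-type TAK-418, 0.324% for mutant TAK-418 against wild-type vehicle and 0.611% for mutant vehicle against wild-type TAK-418. The deposited log2 fold changes of the members ran from -0.208 to 0.088.

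The forms of the assembled transcripts differed in ways the summed level does not show. Not all were as long as the annotated gene: the top transcript of Kdm5b was 5752 to 5891 bases long against 8714 for the longest annotated one, and that of Kdm5a 8335 to 9299 against 10944. Shares below are percentages of the abundance of transcripts that span the site in 1 library. They rest on assembled forms, not on counted junction reads, so no interval is given and no test was run. Crebbp was a single form in most libraries, its top transcript holding 94.3% to 100% of its abundance with 31 exons.

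Kdm5b was assembled in exactly 2 forms in each of the 14 libraries. The form with the 483-base stretch spliced out, as in the coding transcript Kdm5b-201, made up 29.7%, 21.8% and 27.2% in wild-type vehicle, 16.8%, 16.4% and 26.1% in mutant vehicle, 28.0%, 20.1%, 16.9%, 22.1% and 26.5% in treated wild types and 17.6%, 22.6% and 19.2% in treated mutants. The groups overlapped. The larger form, with a median share of 78.0%, kept the stretch, as Kdm5b-203 does. In the annotation of Kdm5b-203 the reading frame runs 54 bases into the stretch printed in capitals above and ends there. RNA not yet spliced and this form cannot be told apart in these files.

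The 82-base exon of Kdm5a is annotated only in Kdm5a-207, a processed transcript with no coding frame. It was included in 11 of 14 libraries. Its share was 28.5%, 33.8% and 19.2% in wild-type vehicle, 0.0%, 10.1% and 35.7% in mutant vehicle, 0.0%, 13.5%, 0.0%, 18.5% and 14.7% in treated wild types and 13.5%, 35.2% and 39.3% in treated mutants. The wild-type TAK-418 values, with 2 of 5 at 0.0%, lay below the wild-type vehicle ones by a narrow margin (18.5% against 19.2%), while the mutant groups overlapped. It was the 1 of 15 exon forms (6.67%) whose groups did not overlap in that comparison. Its length leaves a remainder of 1 when divided by 3.

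The 9 extra bases of Kdm5c, annotated in the coding transcript Kdm5c-202, were assembled in 9 of 14 libraries. Vehicle libraries had 4.91% to 100% and treated ones 0.0% to 31.0%, with every share of 0.0% among the treated. These ranges overlapped, and this split by treatment was made after the values were seen and carries no test. Libraries at 0.0% had relative depths of 47.5 to 168, against 35.1 to 49.8 in vehicle libraries. The part of depth in these shares was not tested. The extra bases were absent or a minor form in 12 libraries, with shares from 0.0% to 31.0%. They made up 100% in wild-type vehicle replicate 1 and 81.5% in mutant vehicle replicate 2, which both also had the long 3′ end. The other 3 libraries with the long end had 0.0%, 0.0% and 9.71%. The shares in treated mutants (at most 9.71%) lay below those in vehicle wild types (9.89% to 100%) by a narrow margin. In that comparison 2 of 15 exon forms (13.3%) did not overlap, the 70-base and 79-base exons of Kdm5c, whose shares are complements.

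Kat6b had the most forms of the 9, with 3 to 7 assembled transcripts per library. Its 133-base exon was included at 63.9% to 96.8% (median 78.5%) and the 56-base exon with its short end at 56.1% to 86.7% (median 66.4%), and both are coding in the annotation. A longer version of the second exon, 929 bases with an end not in the annotation, made up to 18.1% and was found in 12 of 14 libraries. An annotated coding version of 383 bases made up to 11.6% and was found in 3 libraries. The exons mostly went together. Forms with both, in any length of the second, made up 57.3% to 96.8% of the spanning abundance (median 78.5%), and forms with neither a median of 16.8%. Forms with the first alone appeared in 3 libraries at up to 6.65%, and forms with the second alone in 6 libraries at up to 34.7%, the highest being mutant TAK-418 replicate 3, where Kat6b was also lowest. Neither length, 133 or 56, is a multiple of 3, but their sum of 189 bases is, at 63 codons. The first exon varied as well: an exon ending at base 21499960 of chromosome 14 opened 5.8% to 94.3% of the abundance and one ending at 21501078 opened 5.72% to 94.2%, both in all 14 libraries.

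Kat6a carried its 86-base exon of the 5′ untranslated region at 77.6% to 100% in 13 libraries and at 10.4% in mutant vehicle replicate 2. Minor forms of the other acetyltransferases appeared in 3 libraries each. They were a 21-base shorter exon of Ep300 (219 in place of 240 bases) at up to 16.0%, a longer exon of Kat2a (387 in place of 192 bases) at up to 7.51% and a form of Kat2b without the separate exons of 37 and 64 bases at up to 19.6%.

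**Figure D4:**
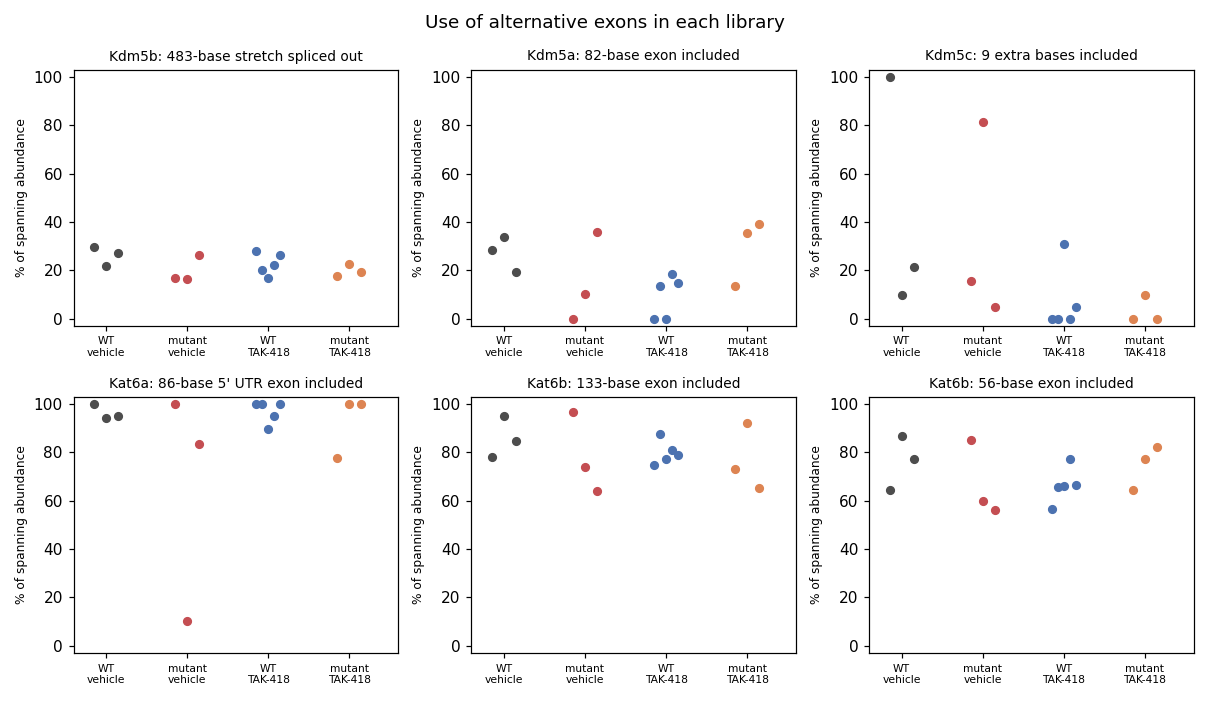
Share of the spanning transcript abundance (y axis, percent) that used the named exon form in each library (points), by group. Kdm5b stays between 16.4% and 29.7% in all 14 libraries, whereas single libraries stand apart for the extra bases of Kdm5c and for the 86-base exon of Kat6a.

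No gene of the lists of partners and opposing enzymes passed the test either. There were 6 lists with 67 genes, all tested, with 0 calls in 536 tests and 13 unadjusted p-values under 0.05 for higher and 8 for lower values (3.92%, against 5.89% of the tests of all genes). Among the 5 subunits that bind MOZ and MORF, the smallest limma p was that of Meaf6 in the drug effect in wild types. Meaf6 was at 28.9, 30.4 and 31.7 in wild-type vehicle and at 36.9, 35.9, 45.1, 41.7 and 36.9 in wild-type TAK-418 libraries. These groups did not overlap, as was found for 6.34% of all genes in this contrast. Its log2 difference was 0.36 ± 0.08 (SE; limma adjusted p = 0.194). In mutants it was at 31.1, 31.3 and 32.6 under vehicle and at 30.2, 34.1 and 28.9 under TAK-418.
Among 18 histone deacetylases, which remove the mark that the acetyltransferases add, the smallest limma p was that of Hdac4 in the same contrast. Hdac4 was at 9.25, 8.53 and 9.30 in wild-type vehicle and between 10.2 and 11.4 in the treated wild types, which did not overlap (log2 difference 0.24 ± 0.05 SE; limma adjusted p = 0.203). Mutant libraries were at 8.68, 8.82 and 9.51 under vehicle and 10.1, 9.57 and 9.82 under TAK-418, which did not overlap either. Groups that do not overlap were found for 6.34% of all genes in wild types and 8.18% in mutants.
Among 22 subunits of SAGA and ATAC, the deubiquitinase Usp22 had the smallest limma p, with a drug effect over both genotypes of 0.10 ± 0.03 (SE, n = 14 libraries; limma p = 0.00343, adjusted p = 0.387). Among 8 CREB and CBP partners it was Cited2, which binds CBP and p300, with a genotype effect under vehicle of 0.24 ± 0.09 (SE; limma adjusted p = 0.812). Among 9 other acetyltransferases it was Hat1, which acetylates newly made histones, with a drug effect in mutants of -0.21 ± 0.09 (SE; limma adjusted p = 1.0). Among 5 other H3K4 demethylases it was Riox1, with a drug effect in mutants of 1.92 ± 0.88 (SE; limma adjusted p = 1.0). Riox1 was at 6.88 to 7.57 in 3 libraries and at or below 0.245 in the other 11.

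Over the 14 libraries, the levels of the members moved together in part. Of the 36 pairs, 30 had a positive Pearson r of log2 values, with a median of 0.362, the highest being Kdm5b with Kat6a (0.802) and the lowest Kdm5a with Kat2a (-0.401). These are descriptions over 14 libraries that differ in depth and scaling. The genes named next were picked as the highest of 13273 correlations. Such picking by itself makes r large, and these values carry no test. The 2 genes most like each member among 13273 listed in all libraries were Cxadr (r = 0.911) and Tbc1d32 (0.902) for Kdm5a, Kif5c (0.913) and Pip4k2b (0.912) for Kdm5b, and Arhgap4 (0.874) and Rfx1 (0.828) for Kdm5c. They were Bsn (0.868) and Atxn1l (0.863) for Crebbp, Mau2 (0.908) and Sestd1 (0.887) for Ep300, and Zfp362 (0.939) and Sec31a (0.867) for Kat2a. For Kat2b they were Tlr3 (0.853) and Epha7 (0.837), for Kat6a Arhgap35 (0.926) and Acaca (0.92), and for Kat6b Zbtb43 (0.91) and its fellow acetyltransferase Kat7 (0.898).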

How the data were processed

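Hippocampal RNA was sequenced in 14 libraries. Per the file headers, CLASS 2.1.7 made the authors' transcript assemblies, 1 per library. The submitters' processing notes name FastQC, TopHat2 2.1.0 and mm10. The deposited abundance score per transcript is per length and depth. This was inferred from the numbers: 93.3% to 98.4% of checked values were whole multiples (within 0.05) of 1 step per library. Wild-type TAK-418 replicates 1, 2, 4 and 5 were at 93.3% to 96.3%, and every other library was at 97.0% to 98.4%. The part of this difference in the contrasts that use the wild-type TAK-418 group was not tested. The authors' 4 tables hold a deposited FPKM per pooled group, a log2 fold change, a p-value and a q-value for each locus.

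The order of groups in those tables was read from the table names and checked against the libraries by correlating the deposited fold change with the library differences of all 12 ordered pairs of groups. The named pair ranked first for 3 of 4 tables. For mutant TAK-418 against wild-type TAK-418 it ranked second (r = 0.269, against 0.285 for mutant vehicle against wild-type TAK-418). Without both libraries highest in choroid plexus markers, a choice made after this was seen, it ranked first for 4 of 4.

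Transcripts were assigned to GENCODE M21 genes (GRCm38, the build of mm10) by shared introns, or for single exons by at least 50% overlap. Abundances were summed per gene and scaled by the median of ratios over 13273 genes. Genes with a value in at least 3 libraries (16568 of 18722) were tested on log2(value + 0.88) with limma 3.58.1 (trend) in R 4.3.3, in 1 fit of 4 group means, with Benjamini-Hochberg adjustment over all genes, after tests on simulated data. A fold change on this scale understates that of low genes. Strand-specific counting is not stated: Kdm5a shares 251 exonic bases with Ccdc77 on the other strand. Replicate numbers follow accession order and pair nothing. The labels' protocols name both NEBNext Ultra and Ultra II kits and tie no library to either.

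The members, lists and tests were chosen with earlier results of these data known. The named differences are, per gene, the contrast with the smallest unadjusted p and any other under 0.05. Of each related list, genes with an adjusted p under 0.05 are named, otherwise the gene with the smallest p. Python 3.11.15, scipy 1.17.1, numpy 2.4.6, pandas 2.3.3 and matplotlib 3.10.9 did the rest.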

Additional observations from a re-analysis of the deposited data

Results flagged for a closer look

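The wild-type TAK-418 group, the one group large enough to screen, had values in which 1 library lay far from the other 4. In replicate 3, Kdm5a was at a scaled abundance of 7.27, against 8.31 to 8.68 in the other libraries. The same library had the longer Kdm5c exon at 31.0% and the shorter one at 69.0%, where the others had 0.0% to 4.79% and 95.2% to 100%. Minor forms assembled in 1 library only of this group, though also in libraries of other groups, were picked up too: in replicate 3 the Ep300 exon of 219 bases at 8.49% beside 91.5% for that of 240 bases, and in replicate 4 the Kat2a exon of 387 bases at 5.49% beside 94.5% for that of 192 bases. There were 7 such values in 23 screens. Chance gives about 1 in 20 for values that vary freely, but that rate does not apply to the exon shares: paired shares are complements of each other, and for Ep300 and Kat2a the other 4 libraries were all at 0.0% or all at 100%, so that any single value apart from them is picked up.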

How the results depend on the processing

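No member was called in any contrast under any of the 24 alternatives fitted, in 1701 tests of a member, and the smallest adjusted p among them was 0.322 (limma). An unadjusted p under 0.05 was found in 32 of them (1.88%). The authors' deposited tables called 0 member loci at q under 0.01 and among loci holding the member alone. Counts of called genes over the whole series were small and moved with the settings. In the order genotype effect under vehicle, genotype effect under TAK-418, drug effect in wild types, drug effect in mutants, vehicle wild types against treated mutants, genotype over both treatments, drug over both genotypes and interaction, the main counts were 0, 2, 1, 1, 1, 1, 2 and 1. They were 1, 4, 4, 2, 6, 2, 4 and 1 with a pseudocount of 0.088, 1, 5, 2, 2, 3, 2, 3 and 2 with every gene that had a value, 0, 1, 0, 1, 1, 1, 1 and 1 with values as deposited, and 0, 3, 0, 2, 2, 1, 2 and 1 with a pseudocount of 8.8. They were 1, 7, 3, 1, 2, 1, 1 and 1 with the most abundant transcript alone, and 0, 0, 0, 0, 0, 0, 0 and 0 with multi-exon transcripts alone. They were 0, 2, 0, 1, 1, 1, 1 and 1 with a term for Xist, and 2, 1, 1, 2, 2, 2, 6 and 2 weighted by transcript length. They were 5, 2, 1, 7, 2, 4, 7 and 5 without both choroid plexus libraries, and 12, 3, 7, 17 and 11 for the first 5 with only the groups compared. These moved counts have causes that were not tested, apart from the fewer samples or genes that an alternative uses by construction. Leaving out each library in turn gave 0 to 5, 1 to 7, 0 to 2, 1 to 8, 1 to 6, 0 to 4, 1 to 7 and 0 to 7 called genes. Of the 9 named member differences, 4 changed sign, none of them past the threshold: with the most abundant transcript alone, Kat6b was at 0.095, Kdm5a at 0.19 and Kdm5b at 0.014; without both libraries highest in choroid plexus markers, Kat2b was at 0.00022; and Kat6b under TAK-418, at -0.072 with all libraries, was at -0.146 to 0.044 when each library was left out in turn, the latter without mutant TAK-418 replicate 3. The order of levels was the same with values as deposited and with multi-exon transcripts, while 5 members changed place with the most abundant transcript alone. Weighting by transcript length and leaving out both choroid plexus libraries were chosen after seeing the data, and 7 members changed place under the weighting. With each library left out, the named differences of Kat6a and Kat2b ran from -0.204 to -0.097 and from -0.099 to -0.004. Values as deposited moved the median of all genes by at most 0.078 on the log2 scale. No paired analysis was possible because replicate numbers follow accession order and pair no mice.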
